A study of Mus musculus with 6 samples.

Results

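The genes described here form the upper part of the Ras-to-ERK kinase cascade: the small GTPase genes Hras, Nras and Rras, the Raf kinase genes Araf and Braf, and the MEK kinase genes Map2k1 and Map2k2. They were chosen by symbol from the deposited count tables, and all 7 were found among 23420 gene rows. Hras stands in the tables under its older symbol, Hras1. The ERK genes, which stand next in the cascade, are not among the members.

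The study compared polyadenylated RNA of TP-DSCs with that of DP-DSCs, subpopulations of dysplastic stem cells that were sorted by flow cytometry from Meta4, a mouse epithelial organoid line. There were 3 libraries of each. As the study is known, though the labels do not say so, both subpopulations carry the surface antigens CD133 and CD166, TP-DSCs carry the CD44v6 form of CD44 in addition, and the line came from the stomach of mice in which an activated Ras allele had been switched on in Mist1-expressing cells. Both groups come from this line, so any such allele is shared by them, a single line is the only biological background, and counts per gene do not separate a mutant from a normal allele. The labels call the samples independent but name no separate cultures, and p-values therefore cover the spread from sample to sample alone, part or all of which may be technical.

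Ras proteins are switches that are on when bound to GTP and off when bound to GDP. Active Ras brings Raf kinases to the membrane, Raf phosphorylates the MEK kinases, and MEK phosphorylates ERK, which drives growth and division in many epithelia. Hras and Nras encode classical Ras proteins, and Rras encodes a relative best known for its part in integrin-mediated adhesion. Araf and Braf encode Raf kinases, of which the product of Braf is the stronger MEK activator, and Map2k1 and Map2k2 encode MEK1 and MEK2. On the GRCm38 build, Hras lies at chr7:141189105-141194005 (minus strand), Nras at chr3:103058285-103067914 (plus) and Rras at chr7:45017961-45021647 (plus). Araf lies at chrX:20797814-20860519 (plus), Braf at chr6:39603237-39725463 (minus), Map2k1 at chr9:64185770-64253631 (minus) and Map2k2 at chr10:81105915-81133975 (plus). The cascade is governed largely by phosphorylation and GTP loading, which RNA levels do not measure.

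Close paralogues can share reads, so the longest exact run that the MEK genes have in common is shown first, within coding exons of the GENCODE M21 transcripts and in transcript sense. Map2k1 and Map2k2 share 56 bases, on chromosome 9 between 64205181 and 64212631 (minus strand) in Map2k1 and on chromosome 10 between 81115125 and 81118159 (plus strand) in Map2k2. In both genes the run crosses from exon 3 into exon 4.
Map2k1 and Map2k2: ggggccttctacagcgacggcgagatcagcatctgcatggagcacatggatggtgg
Of all stretches of 50 bases in the members' protein-coding transcripts, 0.293% of those in Map2k1 and 0.16% of those in Map2k2 also occur in the other. The share that recurs in any other gene's transcripts was 0 for Hras, Rras and Araf, 0.783% for Nras and 0.977% for Braf. In Braf these are the bases where its last exons run against Ndufb2, a gene on the opposite strand.

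The promoters of Braf and Araf are shown because these were the paired genes whose ratio separated the groups, as described further on. Each window runs from 250 bases before to 50 bases after the RefSeq transcription start (GRCm38.p6), at chr6:39725414-39725713 on the minus strand for Braf and at chrX:20848293-20848592 on the plus strand for Araf. The Araf window lies inside the GENCODE span given above, which starts further upstream at 20797814. The sequence at that upstream start is not shown. Capitals mark matches on either strand to 4 motifs that were chosen with these sequences in view, namely the GC box GGGCGG, the box CCAAT, the cyclic AMP response element TGACGTCA and the ETS core CCGGAAG. No matches overlap in these windows.
Braf promoter: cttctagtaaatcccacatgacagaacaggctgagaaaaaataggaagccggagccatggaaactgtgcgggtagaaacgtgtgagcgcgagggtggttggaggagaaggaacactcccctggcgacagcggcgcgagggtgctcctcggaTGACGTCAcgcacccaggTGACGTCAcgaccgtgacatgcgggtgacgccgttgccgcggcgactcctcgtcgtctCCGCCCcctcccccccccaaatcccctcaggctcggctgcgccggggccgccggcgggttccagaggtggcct
Araf promoter: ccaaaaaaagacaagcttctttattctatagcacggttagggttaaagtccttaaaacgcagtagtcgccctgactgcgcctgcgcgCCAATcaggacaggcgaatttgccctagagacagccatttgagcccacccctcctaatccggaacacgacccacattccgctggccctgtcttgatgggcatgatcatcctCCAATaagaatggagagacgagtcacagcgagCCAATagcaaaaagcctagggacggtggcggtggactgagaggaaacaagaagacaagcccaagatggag
Braf held 2 cyclic AMP response elements, a motif found in 1.79% of 32851 mouse promoter windows of the same length, and 1 GC box, found in 35.7%. Araf held 3 CCAAT boxes, found in 37.4%. The ETS core, found in 8.86%, was in neither. A match is a description of the sequence and not a site shown to be used.

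Gene reads ranged from 17015581 to 31068454 in TP-DSCs libraries and from 27027919 to 32671039 in DP-DSCs libraries. Genes with at least 1 read numbered 10710 ± 235 in TP-DSCs and 13632 ± 1005 in DP-DSCs (SD, n = 3 each), and reads in no gene made up 16.2 to 20.3% of reads in TP-DSCs and 14.1 to 15.4% in DP-DSCs. Neither measure overlapped between the groups, and their part in the results was not tested. All 8 epithelial and sort markers had reads in every library, with summed levels of 9010 to 10486 CPM (counts per 1000000 gene reads) in TP-DSCs and 9792 to 11309 CPM in DP-DSCs. Of 25 markers of fibroblast, immune, endothelial, smooth muscle and neuroendocrine cells, 9 had no reads in any library, among them Col1a2, Col3a1, Dcn, Lum, Thy1, Cd3e, Adgre1 and Pecam1. The fibroblast list summed to 0 to 2.90 CPM in TP-DSCs and 0.704 to 3.19 in DP-DSCs, the immune list to 0 to 17.3 in TP-DSCs and 5.14 to 47.6 in DP-DSCs, and the endothelial list to 0 to 5.0 in TP-DSCs and 1.56 to 3.07 in DP-DSCs. The smooth muscle list summed to 0 to 5.79 CPM in TP-DSCs and 0.0306 to 0.999 in DP-DSCs, and the neuroendocrine list to 0 to 0.0588 in TP-DSCs and 0.0306 to 2.42 in DP-DSCs. Cd68, a lysosomal membrane gene, gave nearly all of the immune sum, at 17.3, 4.58 and 0 CPM in TP-DSCs replicates 1, 2 and 3 and 47.3, 5.14 and 12.8 CPM in DP-DSCs replicates 1, 2 and 3.

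All 7 members were well covered, with 456 to 9818 reads per library, and all passed the filter on low counts. To compare levels between genes, CPM was divided by exon length in kb. With the union of protein-coding exons as length, Map2k1 was highest, at 88.2 ± 36.8 CPM per kb in TP-DSCs and 74.9 ± 19.2 in DP-DSCs (SD, n = 3 each). Rras followed at 51.9 ± 25.3 in TP-DSCs and 48.4 ± 11.3 in DP-DSCs, and Map2k2 at 38.2 ± 1.28 in TP-DSCs and 39.9 ± 3.78 in DP-DSCs. Hras stood at 25.4 ± 4.67 in TP-DSCs and 25.7 ± 6.23 in DP-DSCs, Araf at 21.4 ± 8.53 in TP-DSCs and 19.7 ± 1.89 in DP-DSCs, and Nras at 17.6 ± 5.79 in TP-DSCs and 18.2 ± 5.40 in DP-DSCs. Braf was lowest, at 8.98 ± 3.65 CPM per kb in TP-DSCs and 4.33 ± 1.72 in DP-DSCs.

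Braf was the lowest member and Map2k2 exceeded Hras in 6 of 6 libraries, whether length was the union of protein-coding exons or the longest transcript. Rras exceeded Map2k2 in 4 of 6 libraries with the first length and in 1 of 6 with the second, so these neighbours have no set order. Map2k1 exceeded Rras in 6 of 6 and 5 of 6 libraries by these lengths, and Araf exceeded Nras in 4 of 6 and 6 of 6. The top rank of Map2k1 also depended on the length. With the longest transcript, Rras was highest in TP-DSCs replicate 1, and Map2k2 in TP-DSCs replicate 2 and DP-DSCs replicate 2. Hras exceeded Araf in 6 of 6 libraries with the first length and in 2 of 6 with the second. Among 10897 tested genes with a length, the mean level over all libraries placed Map2k1 at percentile 92.9, Rras at 87.8, Map2k2 at 84.4, Hras at 75.4, Araf at 69.8, Nras at 66.0 and Braf at 37.2. With the longest transcript the percentile was 91.1 for Map2k2 and 79.2 for Araf.

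**Figure D1:**
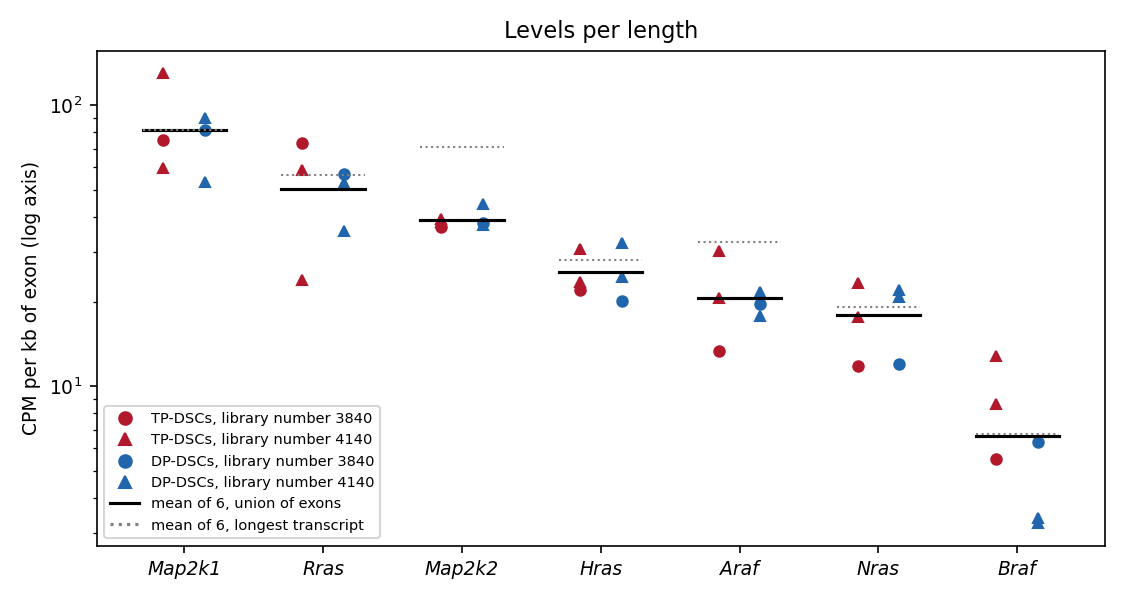
Level of each gene per length (vertical axis, CPM per kb of exon, log scale) in 3 TP-DSCs libraries (red, left of each pair) and 3 DP-DSCs libraries (blue), with circles for library number 3840 and triangles for 4140. Lines mark the mean of 6 libraries with the union of exons (solid) or the longest transcript (dotted) as length; Braf lies below the other 6 genes by either length.

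The comparison of TP-DSCs with DP-DSCs was made in edgeR's quasi-likelihood test across 11925 genes, with p-values adjusted over all of them. None of the 7 members passed an adjusted p of 0.05, and no gene at all did (0.0% of tested genes). At an unadjusted p under 0.05, 1 member, Braf, was higher in TP-DSCs, where 1.43% of tested genes were, and no member was lower, where 4.67% were (6.1% in both directions). DESeq2 called 93 of the 11565 genes to which it gave an adjusted p (0.804%) and none of the members. In counts simulated with edgeR's own estimates of spread, DESeq2 made many more false calls than edgeR, and edgeR rarely recovered 2-fold changes. Whether any of the 93 calls is false was not tested. The members had 4 log2 fold changes above 0 and 3 below, with a median of 0.09, beside 5752 above and 6173 below and a median of -0.02 over all tested genes. For no member were the libraries of the groups separate in CPM, as they were for 12.4% of tested genes. In bulk RNA a change in the number of cells expressing a gene and a change in RNA per cell cannot be told apart.

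Among the Ras genes, Hras stood at 67.9, 95.1 and 73.0 CPM in TP-DSCs replicates 1, 2 and 3, against 62.4, 101 and 75.9 CPM in DP-DSCs replicates 1, 2 and 3. The groups overlapped throughout, and the log2 fold change was -0.03 ± 0.22 (SE; 95% interval -0.55 to 0.50; edgeR adjusted p = 0.999). Nras stood at 56.2, 84.5 and 111.5 CPM in TP-DSCs replicates 1, 2 and 3 and at 57.4, 99.0 and 105 CPM in DP-DSCs replicates 1, 2 and 3. In both groups replicate 1, the library numbered 3840, was the lowest. The log2 fold change of Nras was -0.07 ± 0.30 (95% interval -0.78 to 0.63; edgeR adjusted p = 0.999).

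Rras had 82.0, 26.8 and 65.7 CPM in TP-DSCs replicates 1, 2 and 3, against 63.6, 39.8 and 59.3 CPM in DP-DSCs replicates 1, 2 and 3. Replicate 2 was the lowest library in each group, and the highest value of Rras was 3.06 times the lowest. Its log2 fold change of 0.10 ± 0.46 has a 95% interval of -0.97 to 1.16, the widest of the 7. Differences anywhere within this interval are compatible with these libraries. Leaving out TP-DSCs replicate 2 gave a log2 fold change of 0.45 and leaving out TP-DSCs replicate 1 gave -0.33. It was also below 0, at -0.12, without DP-DSCs replicate 2.

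Of the Raf genes, Araf stood at 60.6, 138 and 93.4 CPM in TP-DSCs replicates 1, 2 and 3 and at 89.1, 98.0 and 80.8 CPM in DP-DSCs replicates 1, 2 and 3. The TP-DSCs libraries spread to both sides of the DP-DSCs libraries, with coefficients of variation of 39.8% in TP-DSCs and 9.60% in DP-DSCs, against medians over all tested genes of 39.2% in TP-DSCs and 22.2% in DP-DSCs. The log2 fold change of Araf was 0.09 ± 0.28 (95% interval -0.55 to 0.74; edgeR adjusted p = 0.999).

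Braf differed most between the groups. It had 54.3, 126 and 85.0 CPM in TP-DSCs replicates 1, 2 and 3, against 62.2, 32.0 and 33.6 CPM in DP-DSCs replicates 1, 2 and 3. The means were 88.4 ± 35.9 CPM in TP-DSCs and 42.6 ± 17.0 CPM in DP-DSCs (SD, n = 3 each), and the groups overlapped because DP-DSCs replicate 1 lay above TP-DSCs replicate 1. The log2 fold change was 1.0 ± 0.39 (95% interval 0.08 to 1.92), with an unadjusted edgeR p of 0.0374 and an adjusted p of 0.705, so the difference did not pass. It lay above 0 in all 17 alternatives tried, from 0.69 without TP-DSCs replicate 2 to 1.62 in the libraries numbered 4140 alone, and the adjusted p ranged from 0.120 to 1.0. In the libraries numbered 4140 alone the unadjusted edgeR p of Braf was 0.0036 and the adjusted p 0.120, where 2.32% of 12066 tested genes were higher in TP-DSCs at an unadjusted p under 0.05 and 12.2% were in either direction. Ndufb2, the gene on the strand opposite the end of Braf, had 43.2, 79.9 and 44.8 CPM in TP-DSCs replicates 1, 2 and 3 and 46.3, 63.6 and 54.2 CPM in DP-DSCs replicates 1, 2 and 3, and its groups overlapped too. The annotation places 146 of the 13862 exon bases of Braf, over all its transcripts, on exons of Ndufb2. Whether the counting used strand is not given in the sources used here.

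The direction in Braf was not the same under both library numbers. These numbers, 3840 and 4140, stand in the library names, and the labels do not say what they mark; each covers both groups, with 1 library of each group under 3840 and 2 of each under 4140. Under 4140 both TP-DSCs libraries lay above both DP-DSCs libraries, as they did for 17.2% of tested genes, with a log2 difference of 1.66. In the single pair under 3840, which has no replicate check, the difference was -0.19. The difference between these effects, tested as an interaction in edgeR after the values were seen, was 1.81 ± 0.52 (SE, log2), with an unadjusted p of 0.0211 and an adjusted p of 0.666. For this interaction 6.61% of tested genes had an unadjusted p under 0.05, and 0.0% passed an adjusted p of 0.05. Opposite signs under the numbers, seen in 47.6% of tested genes, were also found in Rras (0.37 under 3840 and -0.21 under 4140), Araf (-0.55 and 0.35), Map2k1 (-0.11 and 0.35) and Hras (0.12 and -0.07).

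Map2k1 stood at 183, 145 and 316 CPM in TP-DSCs replicates 1, 2 and 3, against 198, 129.8 and 219 CPM in DP-DSCs replicates 1, 2 and 3. The highest library of all was TP-DSCs replicate 3, and in both groups replicate 2 was lowest. The log2 fold change was 0.20 ± 0.34 (95% interval -0.60 to 1.0; edgeR adjusted p = 0.999), and it was -0.14 without TP-DSCs replicate 3 and -0.030 without DP-DSCs replicate 2. Uchl4, a gene on the opposite strand within the span of Map2k1 that shares no exon base with it, had 0.0802, 0 and 6.60 CPM in TP-DSCs replicates 1, 2 and 3 and 0.276, 0.918 and 0.444 CPM in DP-DSCs replicates 1, 2 and 3, so its highest library was also TP-DSCs replicate 3. Map2k2 was the steadiest member, with 161, 173 and 168 CPM in TP-DSCs replicates 1, 2 and 3 and 166, 194 and 164 CPM in DP-DSCs replicates 1, 2 and 3. Its highest value was 1.2 times its lowest, with coefficients of variation of 3.35% in TP-DSCs and 9.48% in DP-DSCs. The log2 fold change of Map2k2, -0.08 ± 0.15, has a 95% interval of -0.43 to 0.28, the narrowest of the 7.

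**Figure D2:**
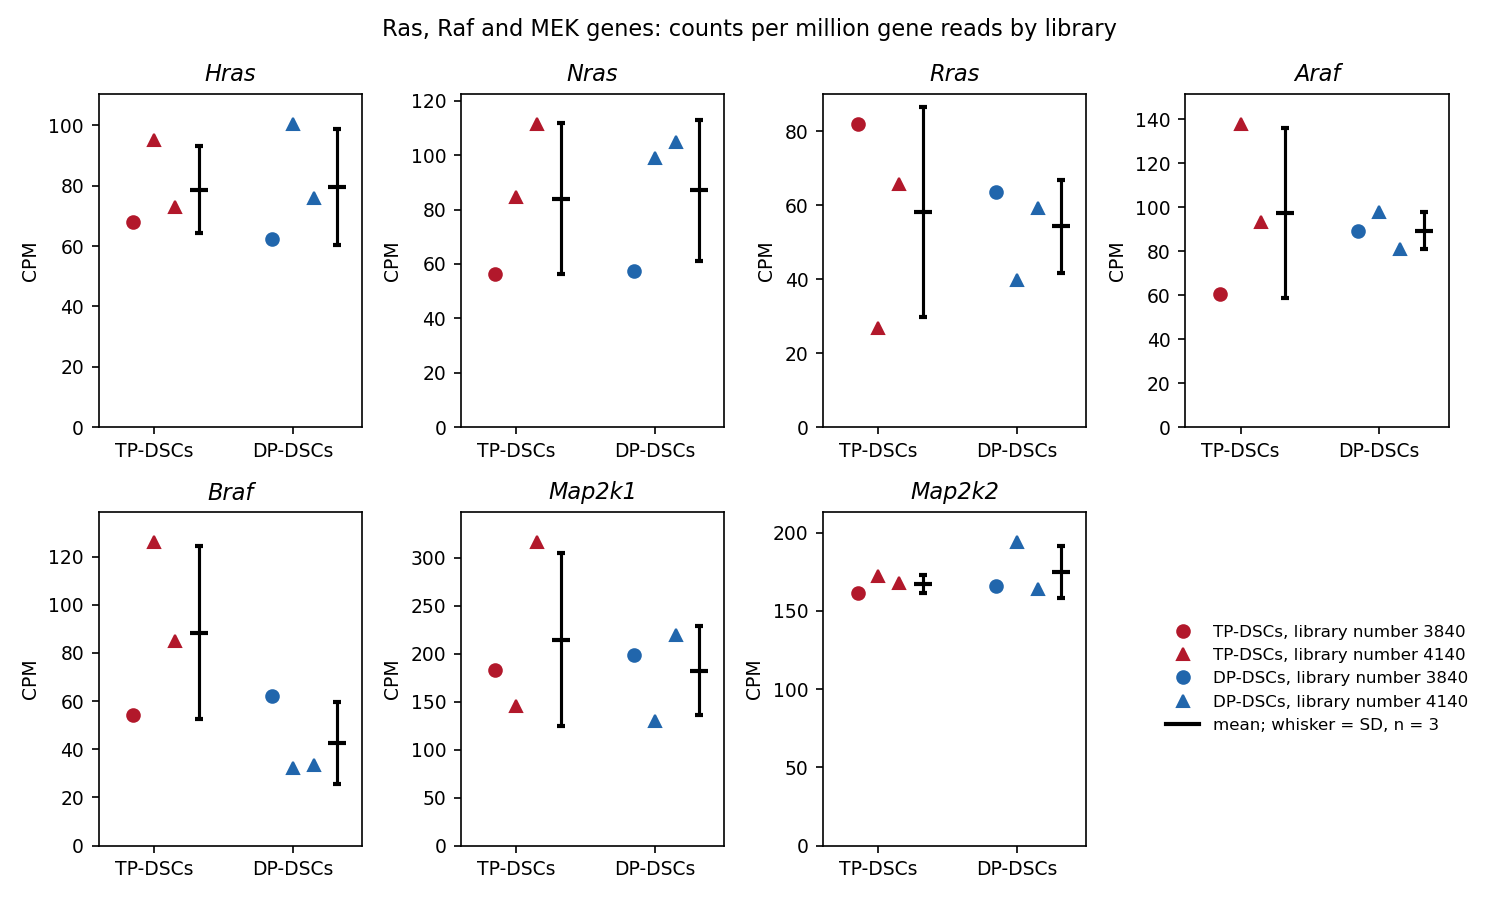
CPM of each gene (vertical axes, starting at 0) by group, with TP-DSCs in red and DP-DSCs in blue, circles for library number 3840 and triangles for 4140; the bar and whisker give the mean and SD of 3 libraries. The groups overlap in all 7 panels; in Braf the TP-DSCs libraries reach 126 CPM while DP-DSCs stay at or below 62.2 CPM, and in Map2k2 all 6 libraries lie between 161 and 194 CPM.

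**Figure D3:**
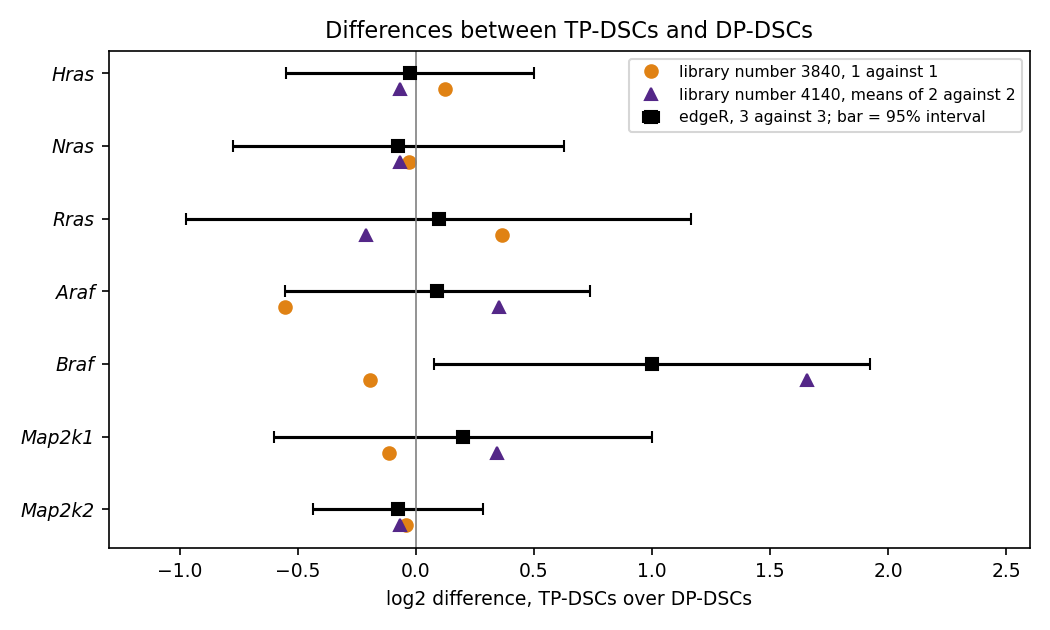
Log2 difference of TP-DSCs over DP-DSCs (horizontal axis) for each gene: squares with 95% intervals from edgeR over 6 libraries, circles for the single pair of library number 3840 and triangles for the means under 4140. The interval of Braf, 0.08 to 1.92, is the only one of the 7 that does not cross 0 before adjustment, and its circle lies at -0.19.

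Ratios of paired members within a library do not depend on how libraries are scaled to each other, and gene length cancels between groups. For Braf over Araf the ratio of read counts was 0.896, 0.914 and 0.910 in TP-DSCs replicates 1, 2 and 3, against 0.698, 0.327 and 0.415 in DP-DSCs replicates 1, 2 and 3. All TP-DSCs libraries lay above all DP-DSCs libraries, including within library number 3840. Under 3840, however, Braf itself was lower in TP-DSCs (54.3 against 62.2 CPM, log2 difference -0.19). The ratio was higher there because Araf was lower by more (60.6 against 89.1 CPM, log2 difference -0.55). The log2 ratio was -0.14 ± 0.015 in TP-DSCs and -1.13 ± 0.56 in DP-DSCs (SD, n = 3 each), a difference of 0.99, with 0.36 under number 3840 and 1.31 under 4140. The exact two-sided permutation test gave p = 0.1, the smallest that 3 against 3 libraries allow, and 0.4 after adjustment over 4 ratios, so this exact test could not pass 0.05 whatever the values. Of all other tested genes, 2.24% had a ratio to Araf that was higher in every TP-DSCs library than in any DP-DSCs library, and 8.86% had separate groups in either direction. Read-counting error alone gives this log2 ratio a standard error of 0.039 to 0.054 in each TP-DSCs library, above the SD of 0.015 between them, so that spread is smaller than counting can resolve.

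The other ratios overlapped between the groups. The log2 ratio of Map2k1 over Map2k2 was 0.28 ± 0.59 in TP-DSCs and 0.03 ± 0.53 in DP-DSCs (SD, n = 3 each; exact permutation p = 0.7). Hras over Nras stood at -0.05 ± 0.48 in TP-DSCs and -0.11 ± 0.31 in DP-DSCs (exact permutation p = 0.7). Rras over Hras stood at -0.57 ± 1.11 in TP-DSCs and -0.55 ± 0.70 in DP-DSCs (exact permutation p = 1.0). With 4 ratios compared, the adjusted p-values of these 3 were 0.933, 0.933 and 1.0.

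**Figure D4:**
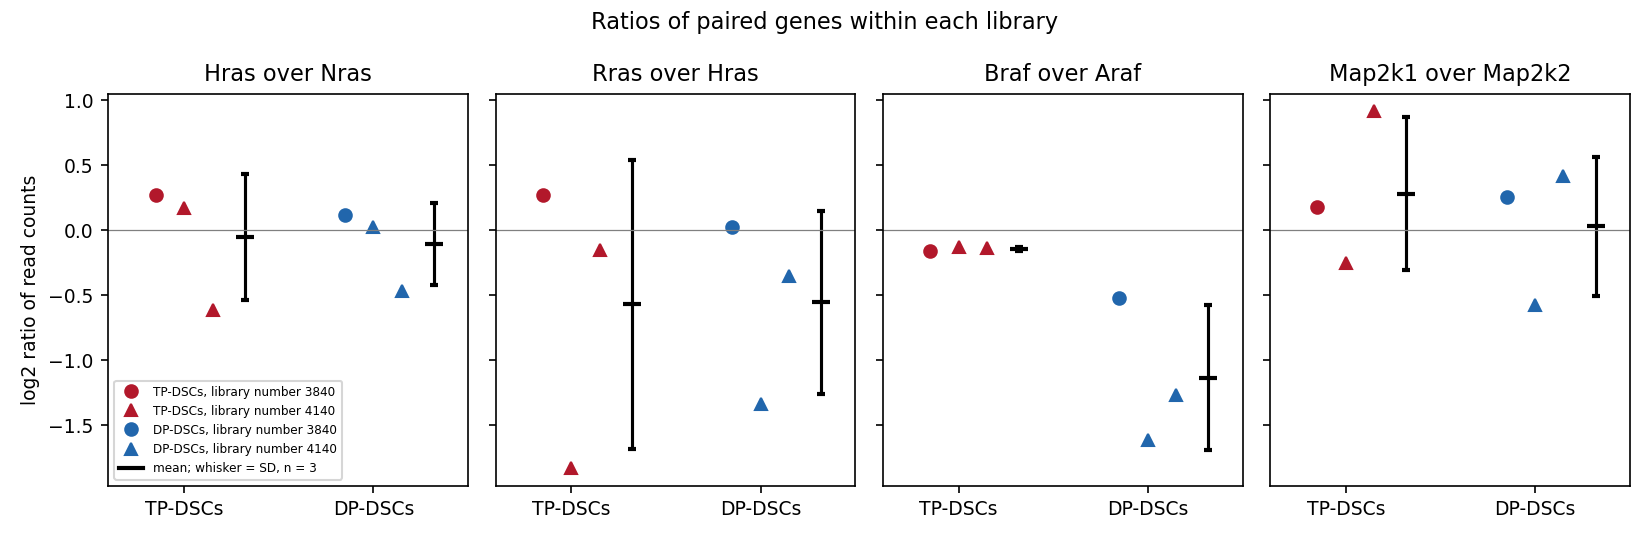
Log2 ratio of the read counts of 2 genes within each library (vertical axis), TP-DSCs in red left of DP-DSCs in blue, circles for library number 3840 and triangles for 4140, with the mean and SD of 3 libraries. Braf over Araf is the ratio of the 4 whose groups are separate, with TP-DSCs libraries between -0.16 and -0.13 and DP-DSCs libraries between -1.61 and -0.52.

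The genes whose profile over the 6 libraries was nearest to each member were found by the root mean square difference of centred log2 CPM among 8818 genes, as a description with no test. The nearest was Mak16 for Hras (0.051), Ntan1 for Nras (0.067), Kxd1 for Rras (0.11), Samd10 for Araf (0.051), Gcc2 for Braf (0.20), Klhl7 for Map2k1 (0.051) and Tmed2 for Map2k2 (0.024). The next nearest were Tle3, Itga3, Camsap3, Zfp322a, Them6, Rad1 and Dnaja2 in the same order of members. All profiles come from the same 6 libraries.

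Genes that act on the members were read from lists of other pathway genes, none of which held a gene past the adjusted threshold. Those named are the up to 3 per list with the smallest edgeR p. This choice favours separate groups, so the shares over all tested genes are no fair yardstick for them. Of 14 adaptors and exchange factors that load Ras with GTP, 10 were tested, with 4 log2 fold changes above 0, 6 below and a median of -0.19. Sos1, a Ras exchange factor, averaged 65.8 ± 16.8 CPM in TP-DSCs and 50.6 ± 6.08 in DP-DSCs (log2 fold change 0.35 ± 0.25, SE). Frs2, a receptor docking protein, averaged 26.2 ± 5.05 CPM in TP-DSCs and 36.1 ± 5.10 in DP-DSCs (-0.48 ± 0.34). Every TP-DSCs library lay below every DP-DSCs library for Frs2, as for 8.56% of tested genes. Rasgrp1, an exchange factor known from lymphocytes, had no reads in TP-DSCs and 1.49 ± 0.583 CPM in DP-DSCs (SD, n = 3). It passed the filter on low counts through DP-DSCs alone. Of 11925 tested genes, 387 had no reads in TP-DSCs.

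The GTPase-activating proteins, which switch Ras off, had a median of 0.28 over 7 tested genes of 10, with 6 above 0 and 1 below. Nf1, the neurofibromin gene, had 45.4, 52.5 and 37.0 CPM in TP-DSCs replicates 1, 2 and 3 and 35.0, 33.2 and 25.2 CPM in DP-DSCs replicates 1, 2 and 3. The groups of Nf1 were separate, with a log2 fold change of 0.52 ± 0.29 (SE; edgeR adjusted p = 0.999). Rasa2 averaged 52.6 ± 19.8 CPM in TP-DSCs and 37.7 ± 8.31 in DP-DSCs, and the scarce Rasa4 averaged 7.27 ± 4.16 CPM in TP-DSCs and 1.35 ± 1.37 in DP-DSCs. Among all tested genes 3.87% had every TP-DSCs library above every DP-DSCs library, against 2 of these 7, Nf1 and Rasa4. The median of the list was 0.018 without TP-DSCs replicate 3, 0.16 without DP-DSCs replicate 1 and 0.44 without TP-DSCs replicate 1.

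Genes for the lipid anchoring, transport and turnover of Ras had 3 above 0 and 7 below among 10 tested, with a median of -0.16. Lypla1, a depalmitoylating thioesterase, averaged 121 ± 33.1 CPM in TP-DSCs and 83.4 ± 5.40 in DP-DSCs (log2 fold change 0.51 ± 0.21, SE; edgeR adjusted p = 0.787). Rce1, the protease that trims farnesylated Ras, averaged 15.3 ± 8.24 CPM in TP-DSCs and 28.3 ± 3.75 in DP-DSCs, and the farnesyltransferase subunit Fnta averaged 51.1 ± 9.02 CPM in TP-DSCs and 66.5 ± 6.35 in DP-DSCs. The groups of Rce1 were separate, with TP-DSCs lower, as for 8.56% of tested genes (edgeR adjusted p = 0.999). Those of Fnta overlapped. Of 23 scaffolds and regulators of Raf and MEK, 22 were tested, 7 above 0 and 15 below, with a median of -0.14. Pebp1, the Raf kinase inhibitor protein, averaged 236 ± 47.2 CPM in TP-DSCs and 289.8 ± 30.2 in DP-DSCs (log2 fold change -0.31 ± 0.20). The 14-3-3 genes Ywhah and Ywhaq had log2 fold changes of 0.31 ± 0.19 and -0.44 ± 0.30.

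Other Ras-related GTPases had 10 tested genes of 14, 3 above 0 and 7 below, with a median of -0.06. Rit1, a Ras relative able to signal to Raf, had 7.54, 7.23 and 1.93 CPM in TP-DSCs replicates 1, 2 and 3 and 26.4, 26.1 and 17.9 CPM in DP-DSCs replicates 1, 2 and 3. All TP-DSCs libraries lay below all DP-DSCs libraries, as for 8.56% of tested genes, and the log2 fold change of -2.07 ± 0.73 (SE) had an unadjusted edgeR p of 0.0236 and an adjusted p of 0.539. Rap2a averaged 46.4 ± 4.73 CPM in TP-DSCs and 65.6 ± 14.4 in DP-DSCs, and Rap1a averaged 97.8 ± 68.1 CPM in TP-DSCs and 64.9 ± 5.12 in DP-DSCs. The groups of Rap2a were separate too, with TP-DSCs lower, and those of Rap1a overlapped. Other MAP2K and MAP3K genes, all 19 tested, had 9 above 0 and 10 below with a median of -0.04. Map3k4 averaged 51.6 ± 5.25 CPM in TP-DSCs and 35.5 ± 1.12 in DP-DSCs. Its groups were separate, with TP-DSCs higher, as for 3.87% of tested genes (edgeR adjusted p = 0.883). Map2k4 averaged 76.3 ± 18.2 CPM in TP-DSCs and 57.5 ± 6.37 in DP-DSCs, and its groups overlapped. Map3k8 had no reads in TP-DSCs and 2.22 ± 1.09 CPM in DP-DSCs, so it too passed the filter through DP-DSCs alone.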

How the data were processed

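Polyadenylated RNA of 3 TP-DSCs and 3 DP-DSCs samples was sequenced with a strand-preserving kit, according to the labels. Raw read counts were deposited per gene symbol, with no normalization apparent in the values: whole numbers whose sums differ between libraries. Per the submitters' processing notes, STAR 2.7.3a, Partek, DESeq2 3.5 and build mm10 (GRCm38) were used; the role of each, the annotation and the strand setting are not stated there. The rows for reads in no gene and ambiguous reads (1.09 to 1.86% of reads) entered neither library sizes nor tests. CPM is the count over all gene reads of the library.

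Groups come from the labelled cell subtype, and replicates are numbered as deposited, without any pairing. Counts were tested in R 4.3.3 with edgeR 4.0.16: filterByExpr (minimum count 10, minimum total 15), TMM scaling, a quasi-likelihood F test on group alone, and a Benjamini-Hochberg threshold of 0.05 over all tested genes. The SE is the log2 fold change over the square root of F, and 95% intervals are not adjusted for multiple tests. Of 130 listed genes, 129 had a row, 2 under an older symbol found through RefSeq synonyms. Lengths and coordinates came from GENCODE M21, promoters from RefSeq. Intervals and standard errors from counting cover counting error only. DESeq2 1.42.0, limma 3.58.1 (voom), other scalings and filters, the library number as a block, number 4140 alone and leaving out each library were the alternatives; DESeq2 without a filter was added after seeing the data.

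The scripts were tested on simulated data. The members, lists and ratios were chosen with earlier results of these data known. Named genes were the members, up to 3 genes per list by smallest p, the 2 nearest profiles per member among genes averaging at least 3 log2 CPM (prior count 2) and no clone or predicted name, up to 2 abundant markers per other cell type, and genes that overlap a member in the annotation.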

Additional observations from a re-analysis of the deposited data

Results flagged for a closer look

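Reads that fell in no gene were not used in the comparisons, and their share was higher in each TP-DSCs library than in any DP-DSCs library. It was 16.2, 20.3 and 19.2% in TP-DSCs replicates 1, 2 and 3, against 15.4, 15.1 and 14.1% in DP-DSCs replicates 1, 2 and 3. What these reads are was not tested.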

How the results depend on the processing

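The biological coefficient of variation common to all tested genes was 0.75. With 3 libraries a group, edgeR rarely recovered 2-fold changes in simulated counts, where DESeq2 recovered more and made many more false calls. Those counts were drawn with edgeR's own estimates of spread. The members' own coefficients of variation in CPM ran from 3.35% (Map2k2) to 48.8% (Rras), both in TP-DSCs. Recovery was not simulated for the members alone. No alternative called a member. DESeq2 called 93 genes (7 higher, 86 lower) after the filter and 267 (39 higher, 228 lower) without it, and the other alternatives called 0, with 362 to 1811 genes at an unadjusted p under 0.05. Braf and Map2k2 kept their sign in all 17 alternatives, which reuse the same libraries. None took number 3840 alone, where the log2 difference of Braf was -0.19. Map2k2 stayed near 0, from -0.13 to -0.045. Hras turned to 0.0051 with genes read in all libraries, and Rras to -0.17 in number 4140 alone. With number 4140 alone the median was -0.12 for the members, 0.44 for the GTPase-activating proteins, -0.38 for lipid processing and 0.075 for other MAP2K and MAP3K genes. The GTPase-activating median was 0.062 without a filter and 0.11 in DESeq2 without one. That of other MAP2K and MAP3K genes was 0.064 with genes read in all libraries. Leaving out each library in turn gave log2 fold changes of -0.17 to 0.12 for Hras, -0.31 to 0.092 for Nras, -0.33 to 0.45 for Rras, -0.22 to 0.29 for Araf and -0.14 to 0.43 for Map2k1. Medians ranged from -0.059 to 0.097 for the members, -0.36 to -0.11 for adaptors, 0.018 to 0.44 for GTPase-activating proteins, -0.28 to -0.063 for lipid processing, -0.22 to -0.059 for scaffolds, -0.24 to -0.038 for other Ras-related GTPases and -0.18 to 0.065 for other MAP2K and MAP3K genes. Ratio differences ranged from -0.13 to 0.33 for Hras over Nras, -0.44 to 0.61 for Rras over Hras, -0.065 to 0.52 for Map2k1 over Map2k2 and 0.75 to 1.30 for Braf over Araf. The cause of these shifts was not tested. No paired analysis was run, because replicates are numbered by order of deposit and the labels pair no libraries.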

Other observations

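Several of the ratios between members ran in the same order over replicates 1 to 3 of TP-DSCs and of DP-DSCs. Rras over Hras was 1.21, 0.282 and 0.899 in TP-DSCs replicates 1, 2 and 3 and 1.02, 0.396 and 0.782 in DP-DSCs replicates 1, 2 and 3. Map2k1 over Map2k2 was 1.13, 0.841 and 1.89 in TP-DSCs and 1.19, 0.670 and 1.33 in DP-DSCs, and Hras over Nras was 1.21, 1.13 and 0.655 in TP-DSCs and 1.09, 1.02 and 0.725 in DP-DSCs, each for replicates 1, 2 and 3. Replicate numbers here follow the order of deposit, and the labels pair no libraries, so these values are given without a test. Braf over Araf did not share this pattern.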
